A study of Mus musculus with 15 samples.

Results

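Cells that take up dying neighbours recognise phosphatidylserine, a lipid that a dying cell turns to its outer face. The receptor tyrosine kinases Tyro3, Axl and Mertk (the TAM receptors) do not bind the lipid themselves: the secreted proteins Gas6 and protein S (gene Pros1) bind it through vitamin K-dependent residues and bridge it to the kinase. Timd4 and Stab2 bind phosphatidylserine directly, whereas Mfge8 bridges it to the integrins that contain the subunits Itgb3 or Itgb5 paired with Itgav. Axl binds Gas6, and Mertk and Tyro3 bind both Gas6 and protein S. In tissue macrophages this machinery clears dead cells and restrains inflammatory signalling.

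These 10 genes, taken as the entries of the deposited table with exactly those symbols, were followed across macrophages of mouse ear skin, and all 10 were among the 42454 entries. Of the 10, 7 had a mean of at least 100 normalized counts over the 15 libraries and were tested among 8656 genes, and Tyro3, Stab2 and Itgb3 did not. A normalized count is the authors' read count divided by 1 factor per library.

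The 15 RNA-seq libraries formed 5 groups of 3. These were recruited nerve-associated macrophages of punched ears (recsNAM), resident nerve-associated macrophages of punched ears (injsNAM) and of unpunched ears (sNAM), and interstitial macrophages of punched (injIM) and unpunched ears (IM). All mice carried CX3CR1-creERT2/gfp and R26-tdT/+ and received tamoxifen, the left ear was punched 3 weeks later, and skin of both ears was taken 10 days after the punch. CD11b+ CD64+ Lin- cells were sorted as GFP-/Tomato- for interstitial, GFP+/Tomato+ for resident and GFP+/Tomato- for recruited nerve-associated macrophages. Both reporters depend on the Cx3cr1 promoter, which blood monocytes also use. The mice were 3 in all and the labels do not tie a library to a mouse, so the groups share animals and the tests below measure the spread between these libraries. The reporter label follows the ear and not the population (injIM is tagged GFP+/Tomato+ and sNAM GFP-/Tomato-), and the genotype label reads Cxcr1, so groups were taken from the titles.

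Library depth was 20.4 to 23.4 M reads (mega-reads) in recsNAM, 16.9 to 19.5 M in injsNAM, 5.64 to 18.6 M in sNAM, 20.4 to 21.9 M in injIM and 20.6 to 23.8 M in IM. Of 10 pan-macrophage markers, 9 had reads in every group. Aif1 was listed at 0 in all 15 libraries, and whether it was counted is not known. Their summed normalized counts overlapped between most groups, with 434100 to 553500 in recsNAM, 351900 to 458500 in injsNAM, 388200 to 448500 in sNAM, 356800 to 409800 in injIM and 429100 to 437000 in IM. Cx3cr1 itself, whose locus carries the sorting reporter, was at or below 173 normalized counts in every library. As the mice carried CX3CR1-creERT2/gfp, this level cannot show whether the sorted cells used that locus. The sNAM library of replicate 2 stood apart: it was the shallowest, at 5.64 M reads, and its 9 mast cell markers summed to 30740 normalized counts, against 2.89 and 2281 in sNAM replicates 1 and 3. Without it, the 3 members called in sNAM against IM (Axl, Timd4 and Gas6) remained called. Replicates differed by more than read-sampling noise, so no pair of libraries within a group could be the same library. Pairs across groups were not compared in this way.

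The sequences before the transcription start are shown for Axl, Gas6, Pros1 and Timd4. These are the members whose libraries did not overlap in any of the 3 comparisons of nerve-associated with interstitial macrophages. The share of all genes without such overlap was not counted, so this only selects what is shown. Each sequence is the 250 bases before the start that the RefSeq promoter table uses, on GRCm38.p6, the assembly that mm10 names, 5′ to 3′ on the gene's strand. That start can lie inside the gene's whole RefSeq span given with its values: 191 of the 250 bases fall inside that span for Axl and 13 for Timd4, and 0 for Gas6 and Pros1. Capitals mark matches of the SMAD core CAGAC on either strand.
Axl, chr7:25788734-25788983, minus strand: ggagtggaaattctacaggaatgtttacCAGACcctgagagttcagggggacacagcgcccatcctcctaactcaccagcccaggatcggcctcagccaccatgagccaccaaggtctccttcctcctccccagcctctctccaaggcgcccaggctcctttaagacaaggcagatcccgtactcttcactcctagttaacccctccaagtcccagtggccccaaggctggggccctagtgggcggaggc
Gas6, chr8:13494536-13494785, minus strand: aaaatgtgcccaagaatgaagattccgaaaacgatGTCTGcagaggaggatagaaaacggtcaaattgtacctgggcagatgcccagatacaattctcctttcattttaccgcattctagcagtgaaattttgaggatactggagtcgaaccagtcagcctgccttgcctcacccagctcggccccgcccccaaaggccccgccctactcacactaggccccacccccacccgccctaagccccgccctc
Pros1, chr16:62854057-62854306, plus strand: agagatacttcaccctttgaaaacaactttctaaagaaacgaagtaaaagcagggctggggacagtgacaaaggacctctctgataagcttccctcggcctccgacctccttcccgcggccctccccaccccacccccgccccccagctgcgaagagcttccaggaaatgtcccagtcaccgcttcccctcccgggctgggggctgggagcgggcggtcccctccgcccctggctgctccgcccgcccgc
Timd4, chr11:46810549-46810798, plus strand: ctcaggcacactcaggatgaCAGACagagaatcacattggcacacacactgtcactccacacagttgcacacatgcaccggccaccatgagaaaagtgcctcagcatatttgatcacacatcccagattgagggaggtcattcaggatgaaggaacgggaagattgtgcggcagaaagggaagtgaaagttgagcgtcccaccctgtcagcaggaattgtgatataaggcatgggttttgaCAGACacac

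The Timd4 stretch holds CAGAC in 2 places, the last of them inside the gene's span, the Axl and Gas6 stretches in 1 place each and the Pros1 stretch in none. Of 32851 promoters of the same length, 42.2% hold that motif. A search on both strands for the AP-1 site TGANTCA, the PU.1 site GAGGAAGT and the E-box CACGTG found no match in any of the 9 members with a promoter in the table, against 6.75%, 2.44% and 6.02% of all promoters. These motifs do not overlap one another in the stretches shown. The G and C content was 60% for Axl, 54.8% for Gas6, 64.4% for Pros1 and 50% for Timd4.

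Axl (chromosome 7, 25756500 to 25788924, GRCm38) was the TAM receptor that separated the nerve-associated from the interstitial macrophages. It had 7761, 7655 and 6182 normalized counts in recsNAM, 9099, 8564 and 4598 in injsNAM, 13763, 8768 and 5119.6 in sNAM, 957, 1134 and 967 in injIM, and 974, 1659 and 1044 in IM. Each of the 9 nerve-associated libraries was above each of the 6 interstitial ones, and the spread was widest in sNAM, where the lowest library was still above every interstitial library.

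Axl rose 7.52-fold in sNAM relative to IM (log2 difference 2.74 ± 0.51 SE on the log2(value + 100) scale, limma adjusted p = 0.0147). It rose 7.28-fold in injsNAM relative to injIM (2.69 ± 0.39 SE, limma adjusted p = 0.00411) and 7.07-fold in recsNAM relative to injIM (2.702 ± 0.20 SE, limma adjusted p = 2.81e-07). The last 2 comparisons share the injIM libraries. After injury, Axl did not pass the threshold in either population: the log2 difference was -0.26 in injsNAM against sNAM (95% interval -1.56 to 1.04, limma adjusted p = 0.979) and -0.21 in injIM against IM (-0.55 to 0.13, limma adjusted p = 0.525). Recruited and resident cells of the punched ear did not differ beyond their spread (recsNAM against injsNAM 0.01, 95% interval -0.84 to 0.86, limma adjusted p = 1.00). In bulk samples, fewer cells of a type and less RNA per cell cannot be told apart. The call in sNAM against IM was lost without sNAM replicate 1 (limma adjusted p = 0.211) or 3 (0.0852) and with a pseudocount of 10 (0.0925). In those settings 0%, 0.104% and 0% of all genes were called. The call in injsNAM against injIM was lost without injsNAM replicate 1 (limma adjusted p = 0.0592), where 0.0697% of all genes were called.

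Summed markers of dendritic cells were higher, without overlap, in each nerve-associated group than in the interstitial group it was compared with. The recsNAM sums overlapped those of IM, however, unlike the Axl levels. In recsNAM against injIM limma called 3 of 8 tested markers higher and 1, Irf4, lower, beside 7.53% of all genes. The part of dendritic cell RNA in the Axl levels was not tested. The 11 markers all had reads in recsNAM, sNAM, injIM and IM, and 10 had reads in injsNAM, where Clec9a was at 0. Their summed normalized counts were 6173 to 9279 in recsNAM, 7846 to 17360 in injsNAM, 29150 to 57440 in sNAM, 2217 to 5326 in injIM and 5392 to 12670 in IM. Ccr7 alone averaged 4936 in recsNAM, 7004.6 in injsNAM, 26806.5 in sNAM, 213.8 in injIM and 452.2 in IM. Much of the difference between these sums was thus in Ccr7. Markers of T and NK cells also differed, with sums of 6282 to 7909 in recsNAM, 5843 to 12270 in injsNAM, 7999 to 12540 in sNAM, 2938 to 3985 in injIM and 1119 to 1667 in IM. Il7r alone averaged 7202 normalized counts in recsNAM, 7587 in sNAM, 3462 in injIM and 1304 in IM, most of the sums of those groups. The other tested markers, Cd3e, Cd3g and Nkg7, were not called in recsNAM against injIM (log2 differences 0.13, 0.21 and 0.15). They were not called in sNAM against IM either, where their log2 differences were 2.452, 2.505 and 2.176. Of those 9 markers, 7 had reads in each group other than injsNAM, where 8 had, and Cd2 was at 0 throughout. Cd3e, which defines T cells, reached 1264, 49.5 and 1802 normalized counts in sNAM. Sums of 8 neutrophil markers were 2561 to 4294 in recsNAM, 2986 to 4030 in injsNAM, 4547 to 6981 in sNAM, 1687 to 2142 in injIM and 1395 to 2111 in IM. Reads were found for 5 of the 8 in recsNAM and sNAM, 6 in injsNAM and IM, and 7 in injIM, and Ly6g, which defines neutrophils, was at 0 in every library. The part of T, NK and neutrophil RNA in the Axl levels was not tested either.

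Mertk (chromosome 2, 128698915 to 128803162) is the receptor through which many resident macrophages clear dead cells. It had 1363, 1098 and 273 normalized counts in recsNAM, 724, 1386 and 286 in injsNAM, 120.4, 1240.1 and 407 in sNAM, 950.3, 1112 and 901 in injIM, and 554, 872 and 1169 in IM. The groups overlapped in all 6 comparisons, and the nerve-associated groups scattered more widely than the interstitial ones. No difference passed the threshold. The intervals were wide, with a log2 difference of -0.81 in sNAM against IM (95% interval -2.78 to 1.16, limma adjusted p = 0.745) and -0.32 in recsNAM against injIM (-1.09 to 0.45, limma adjusted p = 0.723).

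Tyro3 (chromosome 2, 119797740 to 119818104), the TAM receptor best known from the nervous system, was at 0 to 6 reads in each nerve-associated library and at 0 to 63 reads in each interstitial library. It had 3.11, 0 and 0 normalized counts in recsNAM, 0 in all 3 injsNAM libraries, 5.78, 2.91 and 0 in sNAM, 23.0, 51.0 and 0 in injIM, and 25.3, 7.31 and 38.0 in IM. The 3 IM libraries were above all sNAM libraries, but 3 against 3 libraries cannot give an exact permutation p below 0.1, which is the value found (2-sided, 0.2 after adjustment over 16 tests of the 3 low members). In the other groups Tyro3 was absent from at least 1 library, where 3 reads would amount to 2.2 to 5.55 normalized counts.

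Per kilobase of merged exons, the normalized count of Axl averaged 1681 ± 206 in recsNAM, 1732 ± 574 in injsNAM, 2152 ± 1013 in sNAM, 238 ± 23.2 in injIM and 286 ± 88.0 in IM (SD, n = 3). Mertk averaged 212 ± 132, 186 ± 129, 137 ± 135, 230 ± 25.6 and 201 ± 71.5 per kilobase in the same groups. The receptors were thus at like levels in interstitial cells, and Axl was the more abundant in nerve-associated cells.

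**Figure D1:**
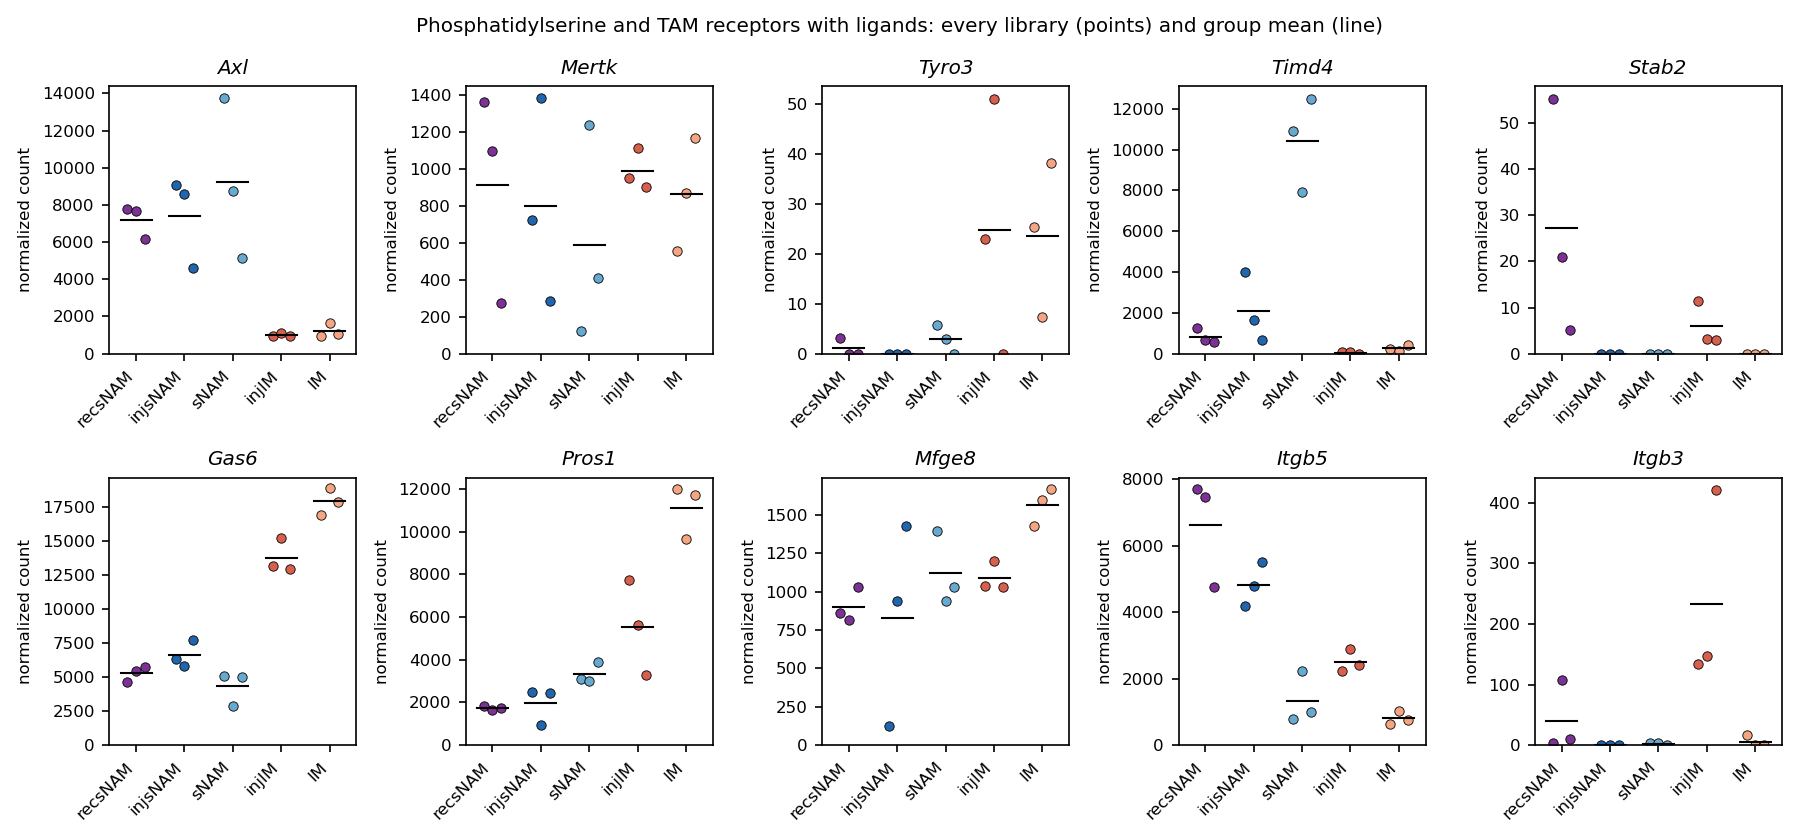
Normalized counts of the members in each library (linear axis from 0), with groups in the order recsNAM, injsNAM, sNAM, injIM and IM. Each point is 1 library and each line a group mean. The 9 nerve-associated libraries lie above the 6 interstitial ones for Axl and Timd4 and below them for Gas6.

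The balance between the receptors was also taken within each library, where the library factor cancels apart from the pseudocount. The log2 ratio of Axl to Mertk, each plus 100, was 2.43, 2.69 and 4.08 in recsNAM, 3.48, 2.54 and 3.61 in injsNAM, 5.98, 2.73 and 3.36 in sNAM, 0.01, 0.03 and 0.09 in injIM, and 0.72, 0.85 and -0.15 in IM. Every nerve-associated library was above every interstitial library. The differences were 3.55 in sNAM against IM, 3.17 in injsNAM against injIM and 3.02 in recsNAM against injIM, each with an exact permutation p of 0.1, the smallest that 3 against 3 allows (2-sided, 0.3 after adjustment over 12 tests of the 2 ratios).

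**Figure D2:**
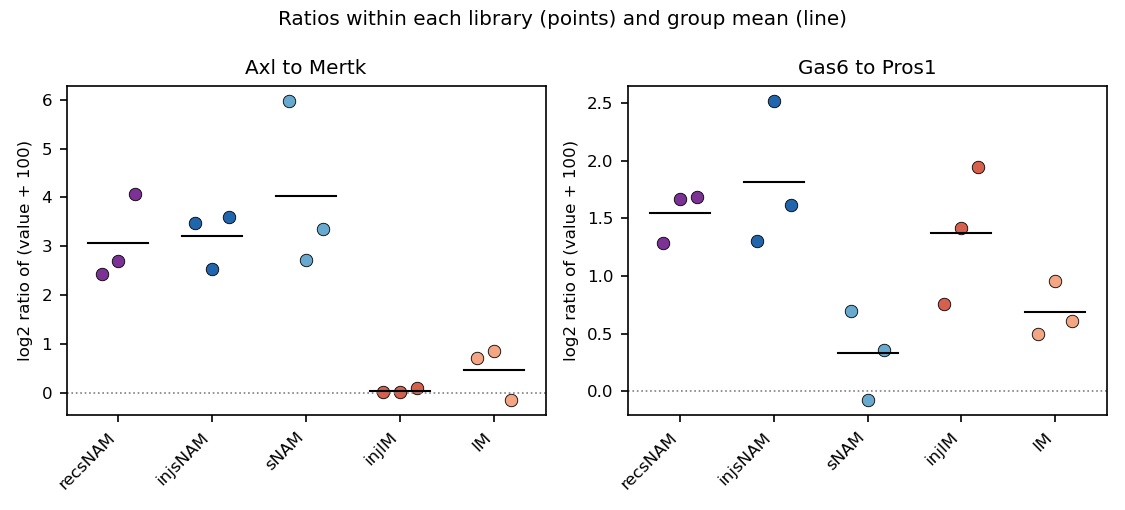
Log2 ratio of Axl to Mertk and of Gas6 to Pros1, each plus 100 normalized counts, in each library of the 5 groups. Each point is 1 library and each line a group mean. The Axl to Mertk ratio lies between 2.43 and 5.98 in nerve-associated libraries and between -0.15 and 0.85 in interstitial ones, and the Gas6 to Pros1 ratio has its lowest mean in sNAM (0.33).

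The ligands were highest in interstitial macrophages. Gas6 (chromosome 8, 13465374 to 13494535), which activates all 3 TAM receptors, had 4625, 5437 and 5735 normalized counts in recsNAM, 6302, 5777 and 7693 in injsNAM, 5075, 2853 and 5005 in sNAM, 13124, 15166 and 12932 in injIM, and 16925, 18842 and 17878 in IM. The order of the groups was IM, then injIM, then the 3 nerve-associated groups, and IM, injIM and the nerve-associated groups did not overlap. Gas6 thus ran opposite to Axl, its receptor.

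Gas6 fell by 2.07 on the log2 scale in sNAM relative to IM (SE 0.33, limma adjusted p = 0.00734), a mean that was 4.15-fold lower. It fell by 1.37 in recsNAM relative to injIM (SE 0.13, limma adjusted p = 2.56e-06). In injsNAM against injIM the log2 difference of -1.06 (SE 0.25) missed the threshold (limma adjusted p = 0.0688), and passed it with replicate number as a block (0.0427). In interstitial macrophages Gas6 also fell after injury, with a log2 difference of -0.38 in injIM against IM (SE 0.10, limma adjusted p = 0.0281). For injsNAM against sNAM the log2 difference was 0.64 (95% interval -0.20 to 1.48, limma adjusted p = 0.849). The test of whether those injury differences differ gave 1.02 (95% interval 0.15 to 1.89, limma adjusted p = 0.876), so the difference was not called. The call in sNAM against IM was lost without sNAM replicate 1 (limma adjusted p = 0.147) or 3 (0.0791) and with a pseudocount of 10 (0.0535). In those settings 0%, 0.104% and 0% of all genes were called. The call in injIM against IM was lost without injIM replicate 1 or any 1 IM library, and in edgeR (adjusted p = 1.00) and DESeq2 (1.00).

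Pros1 (chromosome 16, 62854307 to 62929346), which encodes protein S, also an anticoagulant of plasma, had 1841, 1642 and 1718 normalized counts in recsNAM, 2491, 925 and 2442 in injsNAM, 3087, 3019 and 3878 in sNAM, 7739.5, 5627 and 3272 in injIM, and 11978, 9661 and 11690.1 in IM. The IM libraries were above all others, and the recsNAM and injsNAM libraries were below all sNAM and injIM libraries. Pros1 fell by 1.07 on the log2 scale in injIM relative to IM (SE 0.20, limma adjusted p = 0.00208), where its mean was 2.00-fold lower, and by 1.54 in recsNAM relative to injIM (SE 0.25, limma adjusted p = 0.000546). In sNAM against IM the log2 difference was -1.71 without overlap (95% interval -3.05 to -0.37) but missed the threshold (limma adjusted p = 0.203), while edgeR on the recovered reads called it (adjusted p = 0.0146). In injsNAM against sNAM it was -0.85 (95% interval -2.48 to 0.78, limma adjusted p = 0.918). The call in injIM against IM was lost with no filter (adjusted p = 0.0750), in edgeR (1.00) and in DESeq2 (0.845), and that in recsNAM against injIM in edgeR (0.147).

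Per kilobase, Gas6 was the most abundant member in IM (7018 ± 376, against 3364 ± 382 for Pros1 and 737 ± 57.3 for Mfge8) and in injIM (5393 ± 486, against 1679 ± 677 for Pros1; SD, n = 3). In IM no other member overlapped Gas6. The log2 ratio of Gas6 to Pros1, each plus 100, was 1.28, 1.67 and 1.68 in recsNAM, 1.31, 2.52 and 1.62 in injsNAM, 0.70, -0.08 and 0.36 in sNAM, 0.75, 1.42 and 1.95 in injIM, and 0.50, 0.96 and 0.61 in IM. It was higher in every injsNAM library than in every sNAM library, by 1.49 on average, with an exact permutation p of 0.1, the smallest possible (2-sided, 0.3 after adjustment over 12 tests). The other 5 comparisons of this ratio overlapped.

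Fibroblasts and vessel cells also make these ligands. The summed normalized counts of 8 fibroblast markers were 832.3 to 4584 in recsNAM, 5.88 to 678 in injsNAM, 117 to 862 in sNAM, 4694 to 17710 in injIM and 4638 to 7854 in IM. All 8 had reads in recsNAM, injIM and IM, whereas Lum was at 0 in sNAM and Pdgfra in injsNAM. These sums were lower without overlap in each nerve-associated group than in the interstitial group it was compared with, and overlapped between injIM and IM. Dcn, which defines fibroblasts, had 0, 0 and 561 normalized counts in sNAM against 2476, 2991 and 2411 in IM. The sums of 8 endothelial markers were 366 to 644 in recsNAM, 17.98 to 116 in injsNAM, 115 to 2920 in sNAM, 300 to 890 in injIM and 633 to 2169 in IM, with Tek at 0 in every recsNAM, injsNAM, injIM and IM library. Reads were found for 7 of the 8 in recsNAM, injIM and IM, 5 in sNAM and 4 in injsNAM. The endothelial sums were lower without overlap in injsNAM against injIM, and overlapped in sNAM against IM, recsNAM against injIM and injIM against IM. Of 7 tested mast cell markers, limma called 6 lower in injIM relative to IM, beside 8.18% of all genes. The sums over 9 mast cell markers were 3080 to 4402 in recsNAM, 255 to 2934 in injsNAM, 2.89 to 30740 in sNAM, 4104 to 4464 in injIM and 9481 to 12530 in IM. All 9 had reads in each group other than injsNAM, where Fcer1a was at 0. The part of these 3 cell types in the ligand levels was not tested. Tmem255b, the only other gene of the table whose span overlaps a member (Gas6), stayed at or below 17.8 normalized counts in any library.

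Timd4 (chromosome 11, 46810786 to 46844333), a tethering receptor of resident macrophages, had the largest log2 differences of the tested members in sNAM against IM and in injsNAM against injIM. It had 1234, 671 and 582 normalized counts in recsNAM, 3991, 1646 and 647 in injsNAM, 10898, 7924 and 12500.2 in sNAM, 57.5, 86.6 and 0 in injIM, and 203, 119.8 and 440.0 in IM. The sNAM libraries were above all others, the punched nerve-associated groups came next and overlapped each other, and the injIM libraries were the lowest, below every IM library. Per kilobase Timd4 was the most abundant member in sNAM, at 4805 ± 1069, against 2152 ± 1013 for Axl and 1692 ± 496 for Gas6 (SD, n = 3).

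Timd4 rose 41.1-fold in sNAM relative to IM (log2 difference 4.97 ± 0.91 SE, limma adjusted p = 0.0131), 43.6-fold in injsNAM relative to injIM (3.61 ± 0.70 SE, limma adjusted p = 0.0233) and 17.3-fold in recsNAM relative to injIM (2.63 ± 0.35 SE, limma adjusted p = 0.00011). In interstitial macrophages it fell after injury, by 1.20 on the log2 scale in injIM relative to IM (SE 0.29, limma adjusted p = 0.0118). Among resident nerve-associated cells the injsNAM mean was 2095 ± 1717 against 10441 ± 2322 in sNAM with no overlap, and the log2 difference of -2.57 (95% interval -4.89 to -0.25) missed the threshold (limma adjusted p = 0.683). Recruited cells did not differ from resident ones of the punched ear beyond the spread (recsNAM against injsNAM -0.98, 95% interval -2.49 to 0.54, limma adjusted p = 0.901). The calls in sNAM against IM and injsNAM against injIM depended on single libraries. The first was lost without sNAM replicate 1 (limma adjusted p = 0.185) or 3 (0.143). The second was lost without injsNAM replicate 1 (0.210), 2 (0.0638) or 3 (0.0727). The first was also lost with a pseudocount of 10 (0.279), and the second with a pseudocount of 10 (0.137) or 1 (0.458) and in edgeR (0.0633). Without sNAM replicate 1 or 3, 0% and 0.104% of all genes were called in sNAM against IM. Without injsNAM replicate 1, 2 or 3, 0.0697%, 0.866% and 0.0231% were called in injsNAM against injIM. The call in injIM against IM was lost without IM replicate 3 (0.103) and in edgeR (1.00) and DESeq2 (1.00), and that in recsNAM against injIM in edgeR (0.300). The dendritic, T and NK cell and neutrophil sums given beside Axl were higher in injsNAM and recsNAM than in injIM, without overlap. They were also higher, without overlap, in sNAM than in IM. In recsNAM, sNAM and injIM the T and NK cell sums were mostly Il7r, and the dendritic cell sums of nerve-associated groups were largely Ccr7. The part of these cell types in the Timd4 levels was not tested.

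Timd4 lies in a cluster on chromosome 11 with other genes of the TIM family. Havcr2 (46454931 to 46481255), Timd2 (46668960 to 46707107) and Havcr1 (46739822 to 46779578) precede it, and Timd4 begins 31.21 kb after Havcr1 ends. Havcr1 (TIM-1) had 1.56, 92.0 and 27.9 normalized counts in recsNAM, 0 in all 3 injsNAM libraries, 2052, 207 and 723 in sNAM, 5.75, 0 and 0 in injIM, and 0, 0 and 40.6 in IM. The sNAM libraries stood above all others, and since Havcr1 passed the filter on low values only through them, its test (limma adjusted p = 0.0419 in sNAM against IM) is not read as evidence. Timd2 had reads in 1 library only, recsNAM replicate 1, at 18.7 normalized counts.

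Havcr2 (TIM-3) had a pattern of its own. It had 5241, 7822 and 5484 normalized counts in recsNAM, 2167, 6169 and 3001 in injsNAM, 7246, 4812 and 2313 in sNAM, 2389, 2828 and 2163 in injIM, and 1516, 1565 and 1095 in IM. The recsNAM libraries were above all interstitial ones, and the injIM libraries were above all IM ones. It rose in recsNAM relative to injIM (log2 difference 1.28 ± 0.20 SE, limma adjusted p = 0.000398) and in injIM relative to IM (0.79 ± 0.16 SE, limma adjusted p = 0.00432).

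**Figure D3:**
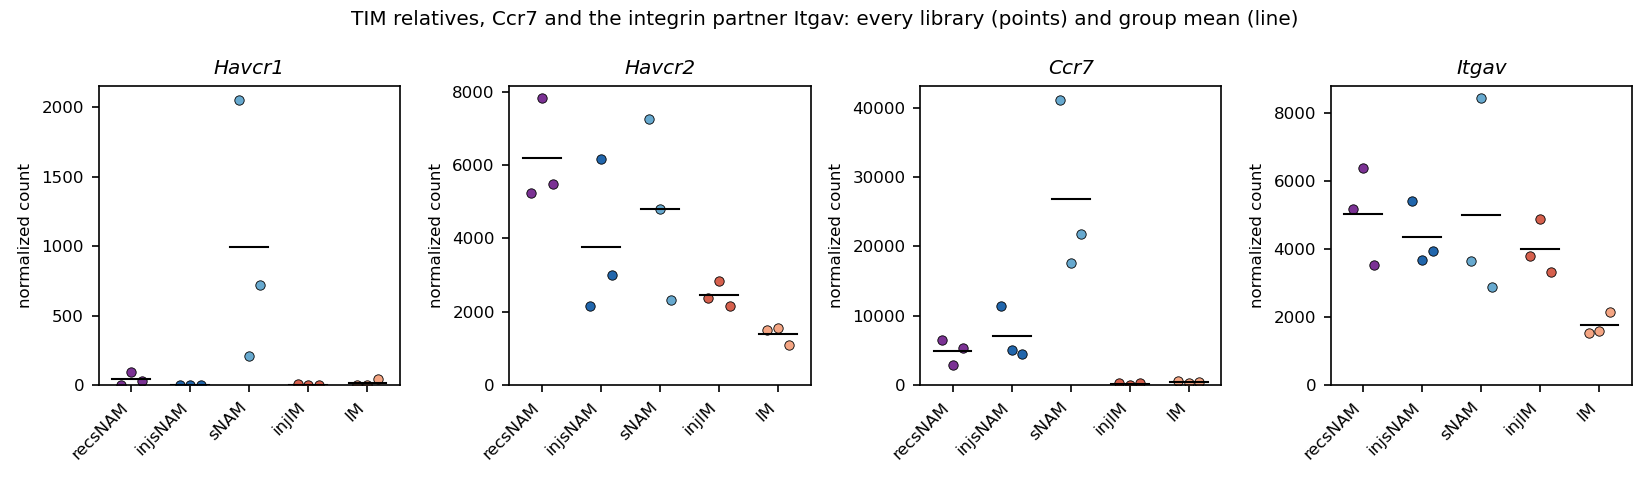
Normalized counts (linear axis from 0) of Havcr1, Havcr2, Ccr7 and Itgav in each library of the 5 groups. Each point is 1 library and each line a group mean. Havcr1 is high only in the 3 sNAM libraries (207 to 2052), Ccr7 follows Timd4, and Itgav is higher in injIM than in IM.

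Stab2 (chromosome 10, 86841194 to 87008038), a scavenger receptor best known from sinusoidal endothelium, was at 55.3, 21.1 and 5.13 normalized counts in recsNAM, 0 in every injsNAM and sNAM library, 11.5, 3.24 and 3.04 in injIM, and 0 in every IM library. Reads were found in both groups of the punched ear outside injsNAM and in neither unpunched group. Its mean was under the filter, and the fit of 23686 genes without the filter gave a log2 difference of 0.08 in injIM against IM (limma adjusted p = 0.777) and 0.25 in recsNAM against injIM (0.316). The exact permutation p for injIM against IM was 0.1, the smallest possible (2-sided, 0.2 after adjustment over 16 tests).

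Itgb5 (chromosome 16, 33829665 to 33949338), the subunit that pairs with Itgav to bind Mfge8-coated cells and to activate latent TGF-β, was higher in punched than in unpunched ears, without overlap, in both populations. It had 7703, 7469.7 and 4749 normalized counts in recsNAM, 4182, 4791 and 5498 in injsNAM, 777, 2224 and 1001 in sNAM, 2217, 2885 and 2419 in injIM, and 646, 1021 and 761 in IM. Punched and unpunched libraries did not overlap within either population, and recsNAM and injsNAM were above every other library.

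Itgb5 rose 3.10-fold in injIM relative to IM (log2 difference 1.53 ± 0.16 SE, limma adjusted p = 6.33e-06) and 2.65-fold in recsNAM relative to injIM (1.35 ± 0.20 SE, limma adjusted p = 0.00026). The injsNAM mean was 3.62-fold higher than that of sNAM (log2 difference 1.90, 95% interval 0.59 to 3.21), which limma did not call (adjusted p = 0.561), in a comparison where limma called no gene at all. The injury differences of the nerve-associated and interstitial populations did not differ beyond their spread (0.37, 95% interval -0.98 to 1.73, limma adjusted p = 0.995). In sNAM against IM the log2 difference was 0.55 (95% interval -0.53 to 1.62, limma adjusted p = 0.668), and in injsNAM against injIM 0.92 (0.09 to 1.74, limma adjusted p = 0.352). In edgeR neither call held (adjusted p = 0.172 in injIM against IM and 0.194 in recsNAM against injIM), whereas DESeq2 kept both.

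Its partner Itgav had 5166, 6377 and 3539 normalized counts in recsNAM, 5398, 3684 and 3944 in injsNAM, 3658, 8439 and 2868 in sNAM, 3794, 4881 and 3334 in injIM, and 1516, 1599 and 2148 in IM. IM was the low group, below every other library. Itgav rose in injIM relative to IM (log2 difference 1.14 ± 0.17 SE, limma adjusted p = 0.000204).

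Itgb3 (chromosome 11, 104608000 to 104670476), the other Mfge8-binding partner of Itgav, was found mainly in interstitial macrophages of punched ears. It had 3.89, 108 and 9.53 normalized counts in recsNAM, 0 in all 3 injsNAM libraries, 2.89, 2.91 and 0 in sNAM, 134, 146 and 421 in injIM, and 16.0, 0 and 0 in IM. Every injIM library was above every other library. Itgb3 was under the filter, and a fit of 23686 genes without it gave a log2 difference of 1.56 in injIM against IM (SE 0.27, limma adjusted p = 0.0162). The exact permutation p was 0.1, the smallest possible (2-sided, 0.2 after adjustment over 16 tests).

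Itgb3 is also a platelet gene. The summed platelet and megakaryocyte markers were 71.8 to 213 normalized counts in recsNAM, 2.64 to 5.995 in injsNAM, 0 to 31.5 in sNAM, 36.4 to 124 in injIM and 72.6 to 200 in IM, with reads for 5 of 8 markers in recsNAM, 2 in injsNAM, 4 in sNAM, 5 in injIM and 6 in IM, and Gp1bb at 0 in every library. The sums of injIM and IM overlapped. The part of platelet RNA in the Itgb3 levels was not tested.

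Mfge8 (chromosome 7, 79133768 to 79149060), the secreted bridge to these integrins, had 861, 814 and 1032 normalized counts in recsNAM, 121, 942 and 1429 in injsNAM, 1398, 943 and 1031 in sNAM, 1041, 1201 and 1034 in injIM, and 1432, 1600.1 and 1668 in IM. The IM libraries were above all others, and the other 4 groups overlapped apart from recsNAM, whose libraries lay below those of injIM. No difference passed the threshold. The log2 difference was -0.48 in injIM against IM (95% interval -0.86 to -0.11, limma adjusted p = 0.118) and -0.46 in sNAM against IM (-1.65 to 0.73, limma adjusted p = 0.759).

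Counted by comparison, the 7 tested members were called as follows. In sNAM against IM, 3 of 7 were called, Axl and Timd4 higher and Gas6 lower, where 1.05% of all 8656 genes were called. In injsNAM against injIM, 2 of 7 were called, Axl and Timd4 higher, against 0.485% of all genes. In recsNAM against injIM, 5 of 7 were called, Axl, Timd4 and Itgb5 higher and Gas6 and Pros1 lower, against 7.53% of all genes. Mertk and Mfge8 were called in no comparison.

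Injury gave 4 calls of 7 in injIM against IM, Itgb5 higher and Gas6, Pros1 and Timd4 lower, against 8.18% of all genes, while edgeR called 0 and DESeq2 1 (Itgb5), beside 0.0219% and 0.544% of all genes in those tools. In injsNAM against sNAM limma called 0 of 7 members and 0% of all genes, with 2 members (Timd4 and Itgb5) at an unadjusted p under 0.05, and edgeR and DESeq2 each called 1 of 7, beside 0.812% of all genes in edgeR and 13.5% in DESeq2. In recsNAM against injsNAM limma called 0 of 7 and 0% of all genes, no member had an unadjusted p under 0.05, and edgeR and DESeq2 called no member, beside 0% and 7.24% of all genes. For the difference between the injury differences of sNAM and IM, limma called 0 of 7 and 0% of all genes, 1 member (Gas6) had an unadjusted p under 0.05, and edgeR and DESeq2 called no member, beside 0.0512% and 6.52% of all genes. The median log2 difference of the 7 members was -0.46 in sNAM against IM, beside -0.26 over all genes tested, and -0.38 in injIM against IM, beside 0.03.

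**Figure D4:**
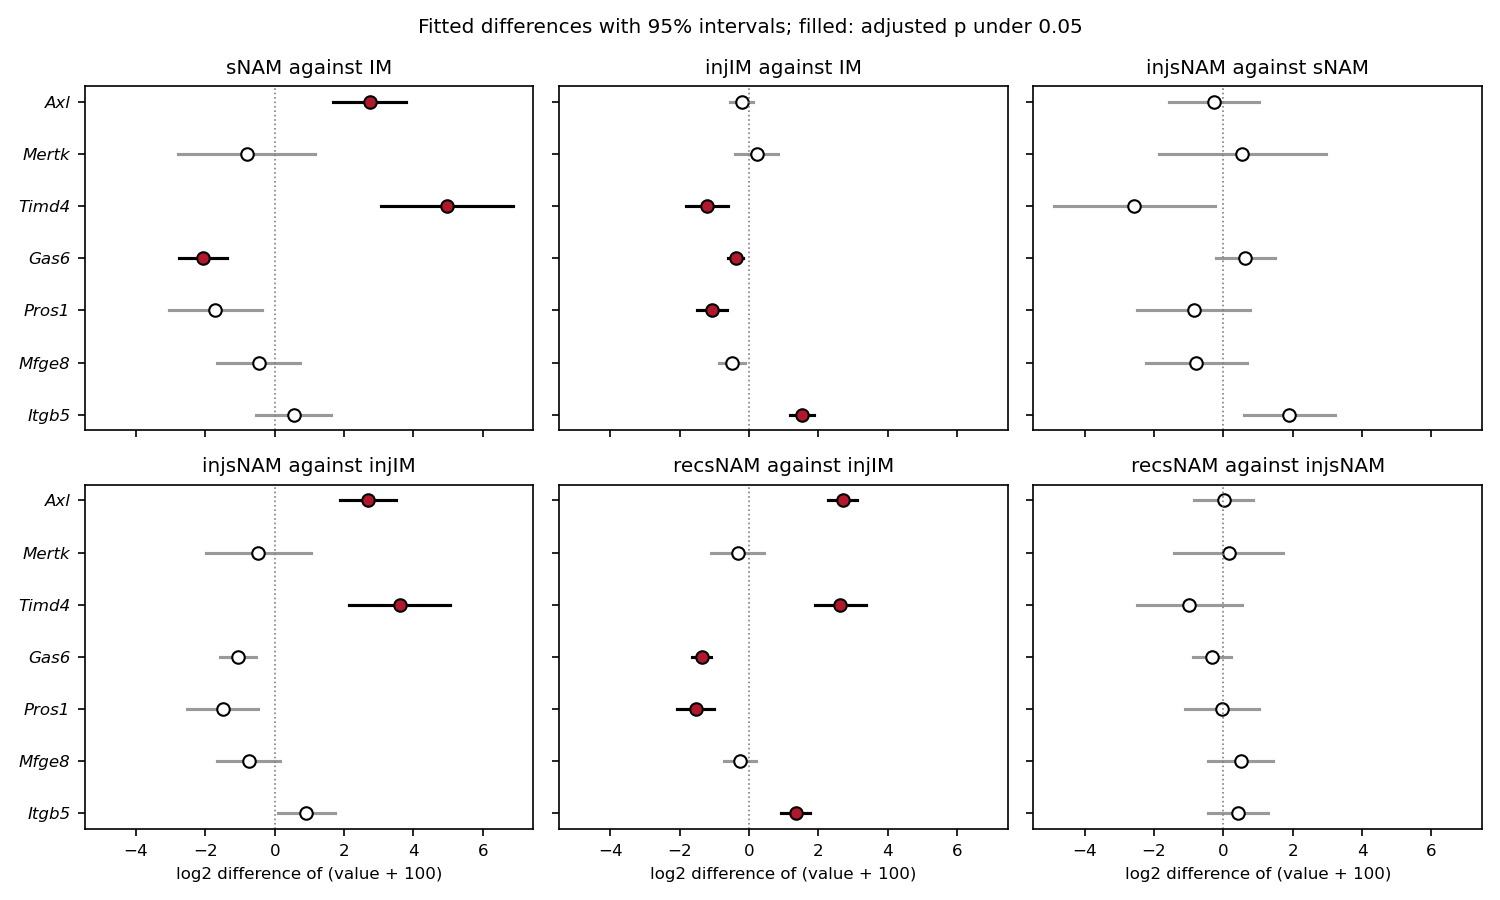
Log2 differences of the 7 tested members in the 6 comparisons, on the log2(value + 100) scale, with 95% intervals from limma. Filled points passed an adjusted p of 0.05. Axl and Timd4 lie to the right in all 3 comparisons of nerve-associated with interstitial macrophages, and Itgb5 lies to the right in injIM against IM and in recsNAM against injIM.

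Further genes of this biology were followed in 7 lists with 94 genes, of which 75 were tested. In sNAM against IM, 1 of 75 was called (Havcr1, described above), beside 1.05% of all genes. In injIM against IM, 18 of 75 were called, 12 higher and 6 lower, beside 8.18% of all genes. In recsNAM against injIM, 20 of 75 were called, 10 in each direction, beside 7.53% of all genes, and in injsNAM against injIM 1 of 75, beside 0.485%. The counts for each list below stand against these same shares. None of the 75 was called by limma in injsNAM against sNAM or in recsNAM against injsNAM, where 3 in each had an unadjusted p under 0.05.

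Of 14 other receptors for dying cells, 5 rose and 2 fell in injIM relative to IM. The most certain were Itgav, Scarb1 (a scavenger receptor that also takes up high density lipoprotein, 1908 ± 338 against 834 ± 178 normalized counts, limma adjusted p = 0.00024), Cd300lb (an activating receptor of the CD300 family, lower at 3977 ± 518 against 8859 ± 1673, limma adjusted p = 0.00115) and Cd300lf (119 ± 37.9 against 14.4 ± 3.65, limma adjusted p = 0.00296). In recsNAM relative to injIM, 2 rose and 3 fell. Cd36, a scavenger receptor for oxidised lipids, fell to 6901 ± 3089 in recsNAM, against 17784 ± 5378 in injIM (limma adjusted p = 0.00107), and Cd300lb fell again (log2 difference -1.06 ± 0.25 SE, limma adjusted p = 0.00967). Itgb2, the β chain of the complement-binding integrins, also fell (-0.39 ± 0.11 SE, limma adjusted p = 0.0432). Trem2, a lipid receptor of tissue macrophages, was listed at 0 in all 15 libraries. So were Aif1, a pan-macrophage marker, and the listed genes Rxrb, Ager and Tulp1. Whether these zeros mean absent RNA or genes that were not counted was not tested.

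Of 9 other bridging proteins, 2 rose and 2 fell in injIM relative to IM. Thbs1, which encodes thrombospondin 1, had 87424, 94972 and 79641 normalized counts in injIM, against 11320.3, 51575 and 7392 in IM (log2 difference 2.41 ± 0.50 SE, limma adjusted p = 0.00814). The injIM libraries were all higher, and IM replicate 2 stood apart from the other IM libraries. C1qc, a chain of the complement recogniser C1q, fell (37977 ± 1312 against 55747 ± 1689, limma adjusted p = 0.00125), as did C1qa, and C3 rose (1685 ± 156 against 838 ± 553, limma adjusted p = 0.0104). In recsNAM against injIM 1 of 9 was called, Anxa1, which was lower (limma adjusted p = 0.00972).

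No gene among the 4 tested for ligand maturation and receptor shedding was called by limma in any comparison, with 1 at an unadjusted p under 0.05 in injIM against IM and none elsewhere. Ggcx, which encodes the carboxylase that completes Gas6 and protein S, was under the filter, at or below 14.1 normalized counts in every library. Of 12 tested genes of the engulfment machinery, the focal adhesion kinase gene Ptk2 was lower in injIM than in IM (324 ± 94.3 against 715 ± 60.7 normalized counts, limma adjusted p = 0.00167), and the phosphoinositide kinase gene Pik3cb was higher (757 ± 90.5 against 333 ± 32.4, limma adjusted p = 0.00805). Ptk2 was lower again in recsNAM relative to injIM (104 ± 12.8 against 324 ± 94.3, limma adjusted p = 0.00539) and was listed at 0 in all 3 injsNAM libraries (limma adjusted p = 0.0359 against injIM). Elmo1 and Rhog, which carry the signal from an uptake receptor to Rac, rose in recsNAM relative to injIM (log2 differences 0.65 ± 0.18 SE and 0.62 ± 0.14 SE, limma adjusted p = 0.0322 and 0.0082).

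Of 18 tested genes for processing what has been taken up, 3 rose and none fell in injIM relative to IM: the cholesterol exporters Abca1 (16886 ± 4191 against 10906 ± 459 normalized counts, limma adjusted p = 0.0357) and Abcg1 (limma adjusted p = 0.0292), and the lysosomal lipase Lipa (limma adjusted p = 0.0264). In recsNAM relative to injIM, 2 rose, Cybb and Ucp2. Of 11 receptors for find-me and do-not-eat-me signals, P2ry6, a receptor for the nucleotide UDP, fell in injIM relative to IM (2934 ± 191 against 5503 ± 378, limma adjusted p = 4.18e-05). In recsNAM relative to injIM, 3 of these 11 rose and 3 fell, led by the inhibitory receptors Pilra (588 ± 196 against 153 ± 38.9, limma adjusted p = 0.00109) and Pirb (4561 ± 652 against 6997 ± 316, limma adjusted p = 0.00442), which moved in opposite directions. Gpr132, a receptor for lysophospholipids, rose (log2 difference 0.79 ± 0.17 SE, limma adjusted p = 0.00592), and P2ry2, a receptor for ATP and UTP, fell (-0.79 ± 0.18 SE, limma adjusted p = 0.00929). Among 7 tested TAM signalling targets, 1 rose and none fell in injIM relative to IM, and 1 rose and 2 fell in recsNAM relative to injIM. Those that fell were the transcription factor genes Klf2 and Klf4 (limma adjusted p = 0.00145 and 0.00389).

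The genes whose patterns lay closest to a member were ranked by the mean absolute difference of centred log2(value + 100) over the 15 libraries, which share groups and library factors, so this is a description. Nearest to Axl were Il21r at 0.474, F11r at 0.477 and Tspan13 at 0.484. Nearest to Timd4 were the chemokine receptor gene Ccr7 at 0.654, Serpinb9 at 0.658 and the chemokine gene Ccl22 at 0.798. Ccr7 and Ccl22 are among the dendritic cell markers, and Ccr7 had 41049.6, 17585 and 21785 normalized counts in sNAM against 591, 285 and 481 in IM. Nearest to Gas6 were Timp2 at 0.212, Pltp at 0.238 and Pmp22 at 0.249, and nearest to Mertk were Tm9sf2 at 0.327, Ngly1 at 0.33 and Afg3l2 at 0.346. The distances for Timd4 were wider than those for Gas6, as its own range across libraries was.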

How the data were processed

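RNA came from sorted macrophages (250 pg, SMARTer Ultra Low Input, 13 PCR cycles, Nextera XT, per the labels' protocols). The submitters' processing notes name STAR 2.7.2b, cutadapt, bcl2fastq 2.18, R 3.6.1 and DESeq2 1.24.0, and genome build mm10. The sources used here give no counter, annotation or strandedness of counting. Deposited was 1 signal per gene and library, a read count scaled by a factor particular to that library. In every library 100% of values above 0 fell within 0.01 of a whole multiple of the smallest, and division by it gave back whole reads.

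Limma 3.58.1 (R 4.3.3, trend, robust) was fitted to log2(value + 100) for genes with a mean of at least 100, with 1 mean and 1 weight per group (recsNAM 1.67, injsNAM 0.311, sNAM 0.175, injIM 3.21, IM 3.43). P-values were adjusted by Benjamini-Hochberg over 8656 genes and called under 0.05. This scale understates changes of low genes, and fold values are ratios of group means. As alternatives, edgeR 4.0.16 and DESeq2 1.42.0 were run on the recovered reads, with other pseudocounts, no filter, 1 pooled spread, TMM scaling, a replicate block and each library left out. On all genes of injIM against IM, edgeR called 3, DESeq2 75 and limma 708. For sNAM against IM they called 367, 1959 and 91.

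Levels per kilobase used merged exons of GENCODE M21. Reads are PCR-amplified without molecular identifiers, so floors of 3 reads cover counting error only. The members and lists were chosen with earlier results of these data known. Named from the lists were called genes, up to 4 a list and comparison by adjusted p, and for Axl, Timd4, Gas6 and Mertk the 3 nearest genes. Itgb3 has no promoter in the table used. A called gene of the lists is counted but not reported by name here.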

Additional observations from a re-analysis of the deposited data

How the results depend on the processing

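Among recomputed differences of the 7 tested members, 633 kept direction and side of the threshold, 14 newly passed it, 45 fell short of it and 36, none of them called, changed sign; the causes were not tested. The calls of recsNAM against injIM were the steadiest. All 5 members stayed called with each library left out, beside 3.14% to 10.4% of all genes. The pooled spread and edgeR each called 2, beside 0.254% and 0.0731% of all genes. In sNAM against IM no member (0) was called with a pseudocount of 10 or 1, beside 0% of all genes in both settings. Leaving out single libraries gave 0 to 3. No member was called there without sNAM replicate 1 or 3, beside 0% and 0.104% of all genes. In injIM against IM 2 were called with no filter (Itgb5 and Itgb3), beside 1.33% of all genes. The pooled spread called 0, edgeR 0 and DESeq2 1, beside 0.208%, 0.0219% and 0.544% of all genes. Single libraries left out gave 2 to 4 members, beside 4.6% to 9.54% of all genes. For injsNAM against sNAM the pooled spread called 2, edgeR 1 and DESeq2 1, beside 4.19%, 0.812% and 13.5% of all genes. In injsNAM against injIM 1 was called with a pseudocount of 10 and 1 with a pseudocount of 1, beside 0.612% and 0.774% of all genes. There edgeR called 1 and DESeq2 4, beside 0.263% and 8.94% of all genes. With single libraries left out 0 to 4 were called, beside 0.0231% to 0.866% of all genes.

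Sign changes among uncalled log2 differences were, for recsNAM against injsNAM, Axl at -0.044 with DESeq2 and Pros1 at 0.028 with TMM scaling. For the injury response of sNAM against that of IM they were Axl at 0.0054 with edgeR, Timd4 at 1.02 with a pseudocount of 1, 0.13 with edgeR and 0.087 with DESeq2, and Mfge8 at 0.15 with edgeR and 0.085 with DESeq2. With single libraries left out, the uncalled differences ran as follows. In injIM against IM, Axl ran from -0.35 to 0.010 and Mertk from -0.035 to 0.44. In injsNAM against sNAM, Axl ran from -0.62 to 0.083, Mertk from -0.081 to 1.22 and Mfge8 from -1.33 to 0.063. In injsNAM against injIM, Mertk ran from -0.94 to 0.030 and Mfge8 from -1.31 to 0.086, and in recsNAM against injIM Mertk ran from -0.70 to 0.29. In recsNAM against injsNAM, Axl ran from -0.30 to 0.19, Mertk from -0.35 to 0.76, Pros1 from -0.49 to 0.18 and Mfge8 from -0.34 to 1.06. For the injury response of sNAM against that of IM, Axl ran from -0.41 to 0.30, Mertk from -0.30 to 1.00, Pros1 from -0.11 to 0.66 and Mfge8 from -0.85 to 0.55. The Axl to Mertk ratio ran from -1.46 to 0.16 in injsNAM against sNAM and from -0.65 to 0.18 in recsNAM against injsNAM, and the Gas6 to Pros1 ratio from -0.14 to 0.46 in recsNAM against injIM and from -0.52 to 0.084 in recsNAM against injsNAM.

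Libraries with the same replicate number correlated at -0.021 to 0.388 after group means were removed, and in no comparison were all 3 pairs above 0.1, so the numbers were not taken to pair the libraries, although a library correlated best with its own number in 4 to 6 of 6 libraries, depending on the comparison, a hint from the data and not the design. The replicate block added Gas6 in injsNAM against injIM (adjusted p = 0.0427).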
